A study of Mus musculus with 11 samples.

Results

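Goblet cell and mucus genes were examined in the small intestine of mice with and without psoriasis-like skin inflammation, with the skin as contrast. The 10 genes were taken by symbol from the 45777 genes of the deposited expression table, and all 10 were found. They were the gel-forming mucin *Muc2*, the transmembrane mucins *Muc13*, *Muc1* and *Muc4*, the secreted mucus proteins *Tff3*, *Fcgbp*, *Clca1* and *Zg16*, the folding enzyme *Agr2* and the transcription factor *Spdef*. BALB/c mice aged 8 to 10 weeks received 62.5 mg of cream per day on shaved skin, either 5% imiquimod (IMQ, a TLR7 ligand) or Vaseline as vehicle. The labels give 5 to 8 days of treatment without the days of each mouse. RNA of whole tissue was sequenced in 3 control and 3 IMQ-treated skins (replicates 1 to 3 and 4 to 6) and in 3 control and 2 IMQ-treated small intestines (replicates 7 to 9 and 10 to 11). Neither the segment of the small intestine nor which tissues came from the same mouse was given in the sources used here, and p-values measure the spread between these libraries.

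Goblet cells are secretory cells of the intestinal epithelium that fill granules with mucin and release it onto the surface. *Muc2* forms the gel, after its folding in the endoplasmic reticulum and dense O-glycosylation in the Golgi. *Agr2* is a protein disulfide isomerase needed for *Muc2* folding, and *Spdef* is an ETS transcription factor of goblet cell maturation. *Muc13*, *Muc1* and *Muc4* stay in the plasma membrane, and *Muc13* is made by enterocytes as well as goblet cells.

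Libraries held 44995414 to 58526384 counts. The 10 genes took 1.04% to 1.16% of the counts in control small intestine, 0.923% and 1.16% in the IMQ-treated small intestines, and 0.0016% to 0.0399% in skin. One library stood apart. Skin control replicate 2 had counts of genes typical of small intestine that were far lower in the other skin libraries, and the source of these counts was not tested. Skin values that rest on this library are given with and without it. In whole tissue, fewer goblet cells and less RNA per goblet cell cannot be told apart.

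The genes are spread over 5 chromosomes and are all protein-coding in the GRCm38 annotation (mm10, the build of the files). *Muc2* (chr7:141690340-141754691), *Fcgbp* (chr7:28071236-28120864) and *Zg16* (chr7:127050156-127052675) share chromosome 7. *Tff3* (chr17:31125306-31129611) and *Spdef* (chr17:27714446-27731003) share chromosome 17. *Muc13* (chr16:33794037-33819929) and *Muc4* (chr16:32735886-32782391) share chromosome 16, and *Muc1* (chr3:89229056-89233381) and *Clca1* (chr3:145004537-145032776) share chromosome 3. *Agr2* lies at chr12:35992925-36004081.

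RefSeq promoter sequences (GRCm38.p6) were matched for 7 of the 10 genes, *Muc2*, *Muc13*, *Muc1*, *Muc4*, *Fcgbp*, *Agr2* and *Spdef*. *Tff3*, *Clca1* and *Zg16* were not analysed for sequence here. The 3 promoters on which the results turn are shown as the 250 bases before the start of transcription, 5′ to 3′ on the + strand. *Agr2* (chr12:35992675-35992924) is the gene that passed the test in small intestine, *Muc2* (chr7:141690090-141690339) is the mucin its product folds, and *Fcgbp* (chr7:28070986-28071235) is the gene with the largest counts in skin. Capitals mark 3 motifs on either strand. GGAT is the ETS core that the Spdef protein is known to prefer and is printed as ATCC where it lies on the opposite strand. TATAAA is the common form of the box found upstream of many start sites. TTTATG is a core of motifs bound by the intestinal factor Cdx2, printed as CATAAA where it lies on the opposite strand.
Agr2: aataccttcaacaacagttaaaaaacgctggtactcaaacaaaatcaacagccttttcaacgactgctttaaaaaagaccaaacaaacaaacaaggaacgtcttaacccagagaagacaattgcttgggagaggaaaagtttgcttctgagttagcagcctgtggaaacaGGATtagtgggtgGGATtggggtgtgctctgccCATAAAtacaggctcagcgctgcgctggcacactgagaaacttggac
Muc2: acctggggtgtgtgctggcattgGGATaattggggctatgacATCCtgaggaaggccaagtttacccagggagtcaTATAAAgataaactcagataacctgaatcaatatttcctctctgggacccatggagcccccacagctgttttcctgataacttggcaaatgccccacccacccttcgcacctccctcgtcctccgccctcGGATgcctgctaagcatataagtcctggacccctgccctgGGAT
Fcgbp: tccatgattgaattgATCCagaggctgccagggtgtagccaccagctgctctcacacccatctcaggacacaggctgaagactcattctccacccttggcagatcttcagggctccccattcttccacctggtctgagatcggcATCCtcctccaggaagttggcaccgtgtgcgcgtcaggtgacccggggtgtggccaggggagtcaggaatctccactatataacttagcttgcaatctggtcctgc

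GGAT was present on either strand in 6 of the 7 promoters and in 74.13% of 32851 RefSeq promoters of the same length. TTTATG was present in 3 of 7 (*Agr2*, *Spdef* and *Muc13*) against 10.76% of all. TATAAA was present in 3 of 7 against 12.37%, at position -31 in *Muc1*, -36 in *Muc4* and -174 in *Muc2*. The *Agr2* promoter held 2 GGAT and the *Muc2* promoter 4. The general ETS core GGAA was found in 7 of 7 (93.45% of all), the GATA-type motif AGATAA in 1 of 7 (9.99%) and the endoplasmic reticulum stress motif CCACG in 0 of 7 (28.34%). One of the 2 AGATAA in the *Muc2* promoter overlaps its TATAAA by 1 base. *Muc13* has 2 listed promoters, of which the first was used. These matches are of letters only.

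In control small intestine, the order of the genes was read from FPKM, which is scaled by transcript length. *Zg16*, a lectin-like protein that binds Gram-positive bacteria, was highest at 2268 ± 181 FPKM (SD, n = 3) and ranked 26 of 45777 genes. *Muc13* (1167 ± 235) and the trefoil peptide *Tff3* (1072 ± 104) followed and overlapped each other. All 3 were among the 48 highest genes of the tissue.

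*Agr2* (357 ± 24.6 FPKM), the metalloprotease *Clca1* (356 ± 59.8) and *Fcgbp* (330 ± 56.4), a protein linked to the Muc2 network, ranked 174, 175 and 195. *Agr2* overlapped *Clca1*, and *Clca1* overlapped *Fcgbp*. *Muc2* itself was lower per length, at 110 ± 34.6 FPKM, and ranked 620. *Spdef* was at 10.6 ± 1.86, *Muc4* at 2.17 ± 0.45 and *Muc1* at 0.130 ± 0.047 FPKM. Below *Fcgbp*, neighbours in the order did not overlap. *Muc1* had 14 to 23 reads per library in all 5 small intestines, so its values carry a large counting error.

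To learn whether skin inflammation was accompanied by changes in mucus genes of the gut, IMQ-treated and control small intestines were tested against each other in edgeR (quasi-likelihood F test, Benjamini-Hochberg adjustment) over the 19965 genes with a count in each of the 5 libraries. All 10 genes were tested. *Agr2* fell, and the other 9 genes did not pass an adjusted p of 0.05. The background share of genes called was 2.95%, of which 2.77% of all genes were higher and 0.17% lower. Unadjusted p was under 0.05 for 4 of the 10 genes, against 12.3% of all genes. This number depended on the fit, with 0 in one fit of all 11 libraries, 1 with a position score as covariate and 6 with scaling to enterocyte markers. Most of the 10 genes are made by the same cells, so they are not independent.

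*Agr2* had 15058, 15916 and 15986 normalized counts in the control libraries and 8245 and 8276 in the IMQ-treated libraries. Both IMQ-treated libraries were well below every control, and the libraries of each group lay close together. The mean was 15653 ± 517 (SD, n = 3) in controls and 8260 ± 22.4 (n = 2) in IMQ-treated mice. The SD of 22.4 rests on 2 libraries and is smaller than counting error alone would give, so it does not measure reproducibility. The log2 fold change was -0.92 ± 0.14 (SE), with an adjusted p of 0.0131 in edgeR's test. The call depended on the model and on both IMQ libraries, since leaving out replicate 10 gave an adjusted p of 0.150 (-0.91) and leaving out replicate 11 gave 0.145 (-0.93), and one fit of all 11 libraries gave 0.901 (-0.94).

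**Figure D1:**
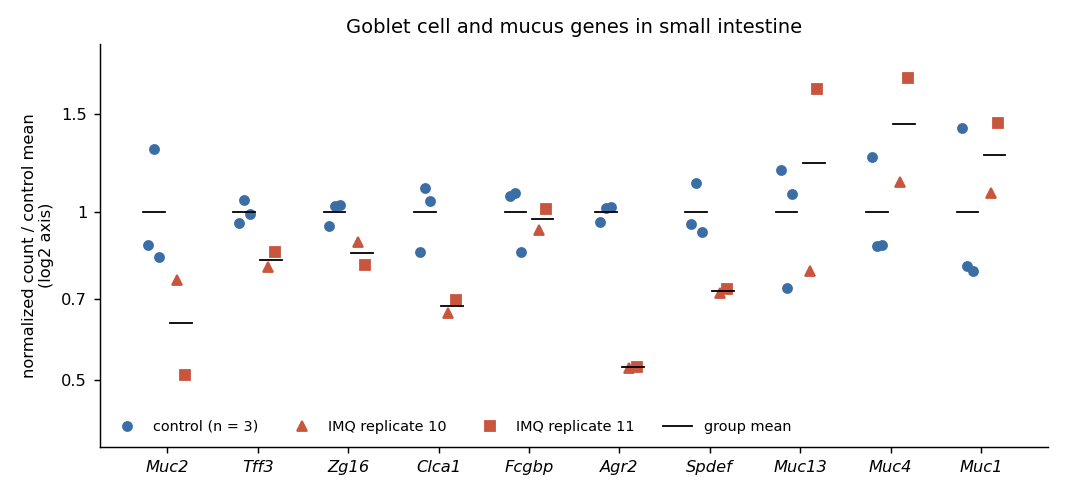
Normalized count of each gene in each small intestine library divided by the mean of the 3 control libraries, on a log2 axis. Circles are controls, the triangle and the square are IMQ replicates 10 and 11, and black lines are group means. *Agr2* is the gene with the lowest IMQ mean and the tightest groups, whereas *Muc2*, *Muc13*, *Muc4* and *Muc1* spread widely within groups.

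Ratios of 2 genes within a library need no scaling between libraries, and *Agr2* was therefore also expressed per count of each other mucus gene. *Agr2* counts per *Tff3* count were 0.557, 0.535 and 0.569 in controls and 0.366 and 0.345 in IMQ-treated mice. Per *Zg16* count they were 0.179, 0.174 and 0.174 against 0.105 and 0.115. Per *Spdef* count they were 14.4, 12.8 and 15.7 against 10.4 and 10.3. Both IMQ-treated libraries were lower than every control for 8 of the 9 other genes, with *Muc2* as the exception. The ratio to *Muc2* was 0.397, 0.283 and 0.443 in controls and 0.251 and 0.372 in IMQ-treated mice, and these overlapped. For each of the 8 ratios the exact two-sided permutation test gave p = 0.2, the smallest p that 3 against 2 libraries allow, and these ratios share their numerator. *Agr2* was taken as numerator because it was the gene called in these same libraries. Lower ratios were therefore likely beforehand and are not separate evidence of its fall.

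**Figure D2:**
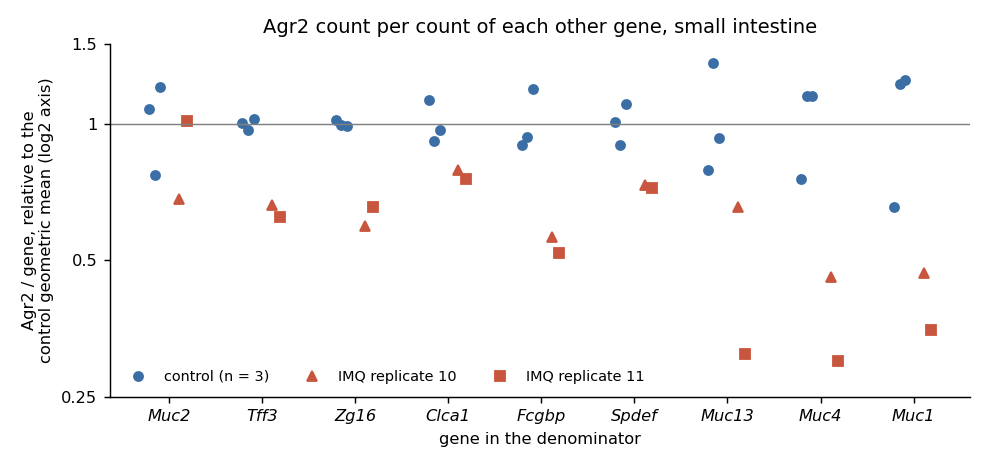
Ratio of the *Agr2* count to the count of each other gene in each small intestine library, divided by the geometric mean of the control ratios, on a log2 axis. Circles are controls, and the triangle and the square are IMQ replicates 10 and 11. The IMQ-treated libraries lie below the controls for 8 of 9 denominators and overlap them for *Muc2*.

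*Spdef* was lower in both IMQ-treated libraries without passing the test. It had 1048, 1244 and 1015 normalized counts in controls and 791 and 804 in IMQ-treated mice, with a log2 fold change of -0.47 ± 0.15 (edgeR adjusted p = 0.235). The groups did not overlap.

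The gel-forming mucin *Muc2* had 37957, 56271 and 36121 normalized counts in controls and 32857 and 22249 in IMQ-treated mice. Both IMQ-treated libraries were below every control, but the libraries within each group differed by a wide margin. The log2 fold change was -0.66 ± 0.28, with an edgeR adjusted p of 0.405.

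Among the secreted partners of *Muc2*, *Clca1*, which cleaves the Muc2 gel, had 50954, 66389 and 62953 normalized counts in controls and 39730 and 41876 in IMQ-treated mice. Its log2 fold change was -0.56 ± 0.21 (edgeR adjusted p = 0.313), and the groups did not overlap. The Wald test of DESeq2 gave *Clca1* an adjusted p of 0.0274. *Tff3*, which acts in epithelial repair, had 27038, 29730 and 28117 normalized counts in controls and 22535 and 24012 in IMQ-treated mice (log2 fold change -0.28 ± 0.16, edgeR adjusted p = 0.570). *Zg16* had 84248, 91447 and 92027 in controls and 78826 and 71788 in IMQ-treated mice (-0.24 ± 0.21, edgeR adjusted p = 0.750). The groups of both genes were separate by a small margin. *Fcgbp* overlapped between the groups, with 160574, 162895 and 127871 normalized counts in controls and 139933 and 152443 in IMQ-treated mice (-0.04 ± 0.26, edgeR adjusted p = 0.978).

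The 3 transmembrane mucins had positive log2 fold changes, and all overlapped between the groups. *Muc13* had 220315, 135495 and 199026 normalized counts in controls and 145404 and 307744 in IMQ-treated mice (0.29 ± 0.41, edgeR adjusted p = 0.866). The 2 IMQ-treated libraries lay on opposite sides of the control mean. *Muc4* had 1780, 1234 and 1241 normalized counts in controls and 1606 and 2468 in IMQ-treated mice (0.52 ± 0.24, edgeR adjusted p = 0.443). *Muc1* had 24.9, 14.1 and 13.9 against 19.1 and 25.5 (0.34 ± 0.39, edgeR adjusted p = 0.832).

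In 6 of the 10 genes (*Muc2*, *Tff3*, *Clca1*, *Agr2*, *Spdef* and *Zg16*) both IMQ-treated libraries were below every control, a pattern that 13.9% of all genes tested showed. None of the 10 was above every control in both, and the share of all genes with that opposite pattern was not determined. The median log2 fold change of the 10 genes was -0.26, against -0.02 over all genes tested. It was -0.30 for pan-epithelial, -0.34 for stem cell and -0.42 for Paneth cell markers, and 0.23 for enterocyte and 0.09 for enteroendocrine markers. A median of this size was thus not particular to the 10 genes.

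Whole small intestine holds many cell types, and markers of some moved with the treatment. Of 13 pan-epithelial markers, 12 were lower and 0 passed the test, whereas 10719 of all 19965 genes tested were lower. Their median log2 change was -0.30, and their summed normalized counts were 634158 to 849452 in controls and 536264 to 620407 in IMQ-treated mice. The 2 with the smallest p were *Tspan8* (-0.46) and *Krt18* (-0.41). Enterocyte markers had a median of 0.23 over 12 genes, of which 6 were higher, 6 lower and 0 called. The 2 with the smallest p were both higher, with *Apoa4* at 1.83 ± 0.58 (edgeR adjusted p = 0.222) and *Alpi* at 0.74 ± 0.25 (adjusted p = 0.249). Of 10 macrophage markers, 9 were higher and 5 passed the test, with a median of 1.65. The 5 were led by the complement genes *C1qb* (2.83) and *C1qc* (2.61), *Cd68* (2.54) and *Adgre1* (2.16). *Cd14* (1.25), *Csf1r* (0.38), *Cd163* (0.23), *Mrc1* (0.05) and *Cx3cr1* (-0.14) did not pass. Summed normalized counts of the list were 12902 to 20367 in controls against 58808 and 59116 in IMQ-treated mice. When libraries were scaled to the pan-epithelial markers, the median over all genes shifted to 0.30 and *Agr2* had a log2 fold change of -0.60 (edgeR adjusted p = 0.112). When they were scaled to the enterocyte markers, the median over all genes shifted to -0.36, *Agr2* had -1.26, and *Clca1* passed the test as well (-0.90, edgeR adjusted p = 0.0482). The enterocyte list shares *Apoa4*, *Fabp1* and *Lct* with the list of proximal genes below, so that scaling does not separate cell composition from position. The part of cell composition in the fall of *Agr2* was examined only in these ways, which cannot decide it.

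Genes that mark the position along the small intestine also differed in level between the libraries. The median log2 change was 1.07 for 9 proximal genes (6 higher, 3 lower) and -0.75 for 8 distal genes (1 higher, 7 lower). Neither list had a called gene, and the shift was not uniform. Of the proximal genes, *Apoa4* had 1.83, but *Gata4* (-0.01), *Lct* (-0.04) and *Cybrd1* (-0.44) were not higher. The distal gene *Nt5e* had 1.33. The proximal minus distal score (log2) was 0.13, -1.22 and -0.80 in controls and 0.30 and 1.59 in IMQ-treated mice. The library with the highest score, IMQ replicate 11, had the lowest *Muc2* count, and the library with the lowest score, control replicate 8, had the highest. With this score as a covariate, the log2 fold change of *Agr2* was -0.87 ± 0.20 (edgeR adjusted p = 0.158) and that of *Muc2* was -0.06 ± 0.34 (adjusted p = 0.961). The 3 transmembrane mucins changed sign in that fit, to -0.79 for *Muc13*, -0.43 for *Muc1* and -0.20 for *Muc4*. The score did not overlap between the groups, so position and treatment cannot be fully told apart.

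**Figure D3:**
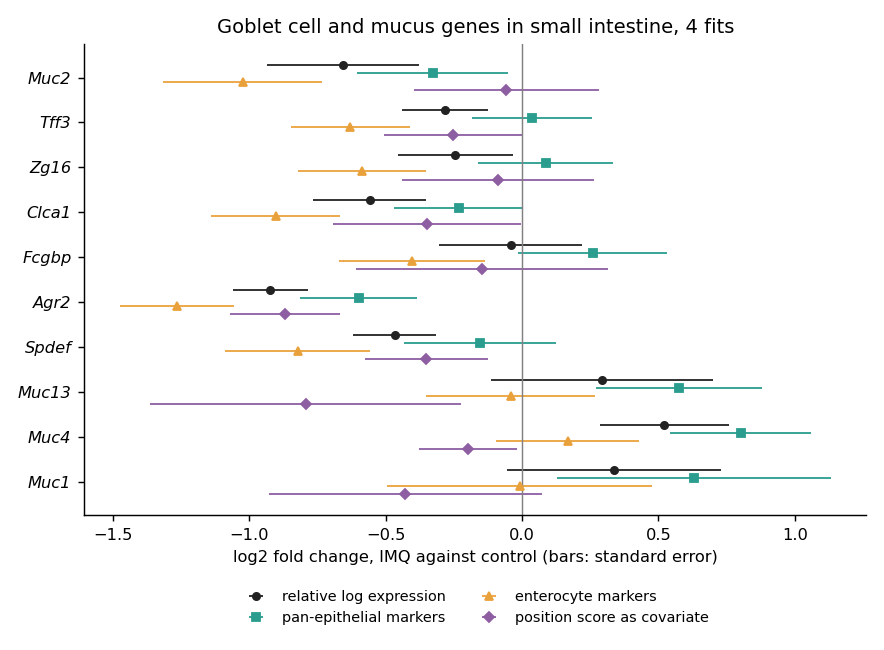
Log2 fold change between IMQ-treated and control small intestine for each gene in 4 edgeR fits, with bars of 1 standard error. Black is relative log expression, green and orange are scalings to pan-epithelial and enterocyte markers, and purple has the position score as covariate. *Agr2* stays between -1.26 and -0.60 in all 4, whereas *Muc2* lies between -1.02 and -0.06.

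The pattern of *Muc2* over the 5 small intestine libraries was compared with 10046 genes of at least 500 mean normalized counts, by the root mean square difference of centred log2 values. The 5 nearest genes were *Cdon* (0.0589), *Car8* (0.0688), *Mro* (0.0865), *Tmem144* (0.103) and *Tfpi* (0.109). The nearest mucus gene was *Spdef* (0.241), which ranked 140, followed by *Clca1* (0.276) at 288 and *Agr2* (0.308) at 553. *Muc4* (0.767) and *Muc13* (0.812) ranked 9273 and 9398.

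Other mucins and family members were read beside the 10 genes. *Muc3*, another transmembrane mucin of the intestine, rose, with 4151, 3737 and 4926 normalized counts in controls and 7574 and 7988 in IMQ-treated mice (log2 fold change 0.87, edgeR adjusted p = 0.0269). Its neighbour and paralog *Muc3a* had a log2 fold change of -0.26 (adjusted p = 0.839), and reads shared by the pair make both values uncertain. *Muc6*, *Muc5ac* and *Muc5b*, the gel-forming mucins beside *Muc2* on chromosome 7, had 0 to 6 counts in each small intestine library. The *Clca1* neighbour *Clca3b* had a log2 fold change of -0.51 (adjusted p = 0.223). *Clca4a*, in the same cluster, ranged from 5113 to 45187 counts within the controls alone.

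Wider lists of the mucus pathway gave few calls in small intestine, where 2.95% of all genes tested were called. These counts are therefore not read as a result about the pathway. Of 16 other goblet cell products tested, 14 were lower and 0 passed the test, with a median log2 fold change of -0.42. Over all 19965 genes tested, 10719 were lower and the median was -0.02. The 2 with the smallest p were *Guca2a*, the precursor of guanylin, at -1.23 ± 0.29 (edgeR adjusted p = 0.0916) and the kallikrein *Klk1* at -0.49 ± 0.15 (adjusted p = 0.188). The summed normalized counts of the list were 246373 to 260366 in controls and 185376 and 227526 in IMQ-treated mice.

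Of 17 regulators of the secretory lineage, only the receptor *Notch2* passed, with 1173, 1308 and 1129 normalized counts in controls and 2343 and 2331 in IMQ-treated mice (log2 fold change 0.96, edgeR adjusted p = 0.0067). *Atoh1*, the factor that commits cells to the secretory fate, had -0.37 (adjusted p = 0.46). Of 27 O-glycosylation enzymes, 1 rose and 0 fell. It was *Gcnt1*, which makes the core 2 branch also in leukocytes, with 197, 228 and 233 normalized counts in controls and 901 and 528 in IMQ-treated mice (1.70 ± 0.26, adjusted p = 0.0142).

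Of 22 genes of folding and stress in the endoplasmic reticulum, 0 passed the test and the median was -0.05. The chaperone *Hspa5* had a log2 fold change of -0.01 and the stress factor *Xbp1* -0.02, and *Herpud1* (0.51, edgeR adjusted p = 0.266) and *Atf6* (0.36, adjusted p = 0.276) had the smallest p. *Ern2*, the stress sensor of mucus-secreting cells, had -0.49 (adjusted p = 0.55). *Agr2* was thus the called gene among the folding enzymes examined.

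Of 23 genes of mucus release, hydration and cleavage, 1 rose, the phagocyte oxidase *Cybb* (2.09 ± 0.14, edgeR adjusted p = 4.2e-04), which macrophages express. The epithelial oxidase *Duox2* had -1.26 (adjusted p = 0.055), and the meprin subunit *Mep1a* had -1.15 (adjusted p = 0.081). *Mep1b*, the meprin subunit that cleaves Muc2 at the surface, had -0.19 (adjusted p = 0.82). Of 9 tested genes of the IL-4, IL-13 and IL-22 pathways, 0 passed. The decoy receptor *Il22ra2* had 135, 130 and 132 normalized counts in controls and 46.3 and 16.6 in IMQ-treated mice (-2.05 ± 0.44, adjusted p = 0.0652), and *Il4ra* had 0.50 (adjusted p = 0.143).

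Markers of other epithelial types gave 0 calls each, and the 2 genes of each list with the smallest p are given as log2 fold changes. The median over the list was -0.42 for 9 Paneth cell markers, 0.09 for 9 enteroendocrine markers, -0.34 for 6 stem cell markers and -0.0036 for 7 tuft cell markers. These genes were *Ang4* (-0.71) and *Mptx2* (0.73) of Paneth cells, *Gcg* (-0.54) and *Cck* (0.86) of enteroendocrine cells, *Axin2* (-0.49) and *Olfm4* (-0.56) of stem cells, and *Alox5ap* (0.96) and *Dclk1* (-0.28) of tuft cells. Of 4 listed Brunner gland markers, only *Dmbt1* was tested, at 0.78 (edgeR adjusted p = 0.503). It made up 58876 of the 58879 summed normalized counts of that list in control replicate 8. *Dmbt1* alone is therefore not a reading of Brunner glands. Smooth muscle (-0.20, 8 genes), T cell (-0.51, 7 genes) and B and plasma cell markers (-0.55, 7 genes) also had 0 calls.

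**Figure D4:**
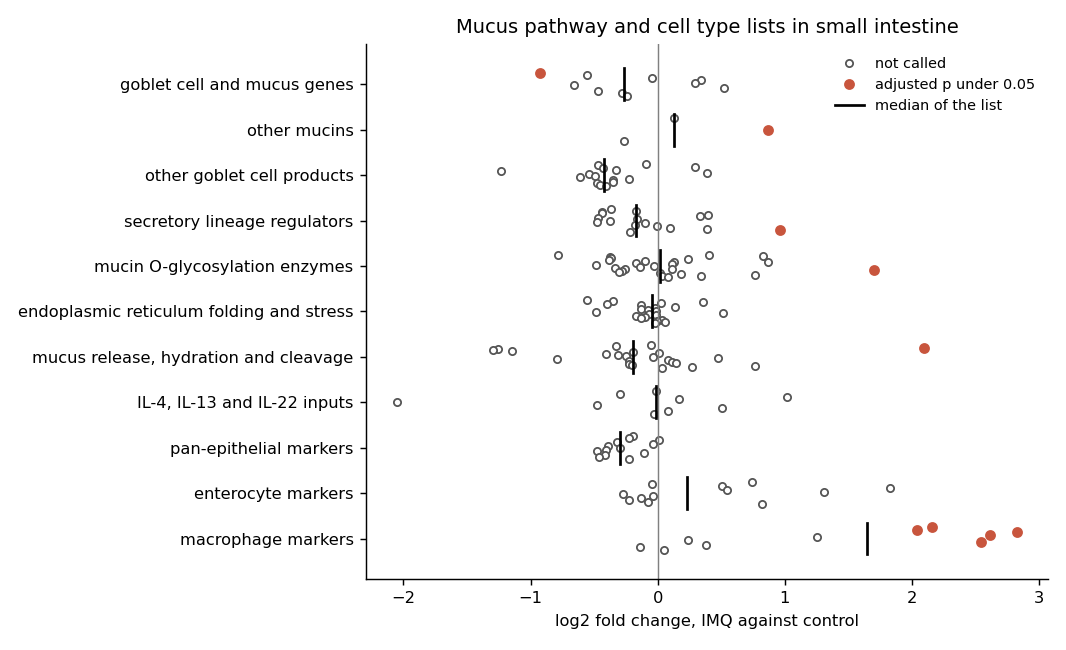
Log2 fold change between IMQ-treated and control small intestine for each tested gene of the mucus pathway lists and 3 cell type lists. Filled points have an edgeR adjusted p under 0.05, open points do not, and black bars are list medians. *Agr2* is the filled point among the 10 goblet cell and mucus genes, and 5 of 10 macrophage markers are filled.

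In skin, the 10 genes were mostly at a few reads, apart from *Fcgbp* and from skin control replicate 2. *Agr2* had 196 counts in that library and 0 in the other 5. *Tff3* had 323 there and 0, 0, 0, 9 and 0 in the others. *Zg16* had 1093 there and 0 to 22 in the others, and *Muc13* had 1356 against 2 to 53.

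Relative to its total count, control replicate 2 held 0.833% to 1.47% of the control small intestine level of *Muc2*, *Muc13*, *Tff3*, *Clca1*, *Agr2* and *Zg16* (median 1.33%). In that library, 7 enterocyte markers with at most 50 counts in the other skin libraries were at 0.487% to 1.43%, with a median of 0.733%. *Spdef* and *Muc4* had 0 counts in the same library, where 1.33% of their small intestine levels would give 13.1 and 16.7 counts.

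**Figure D5:**
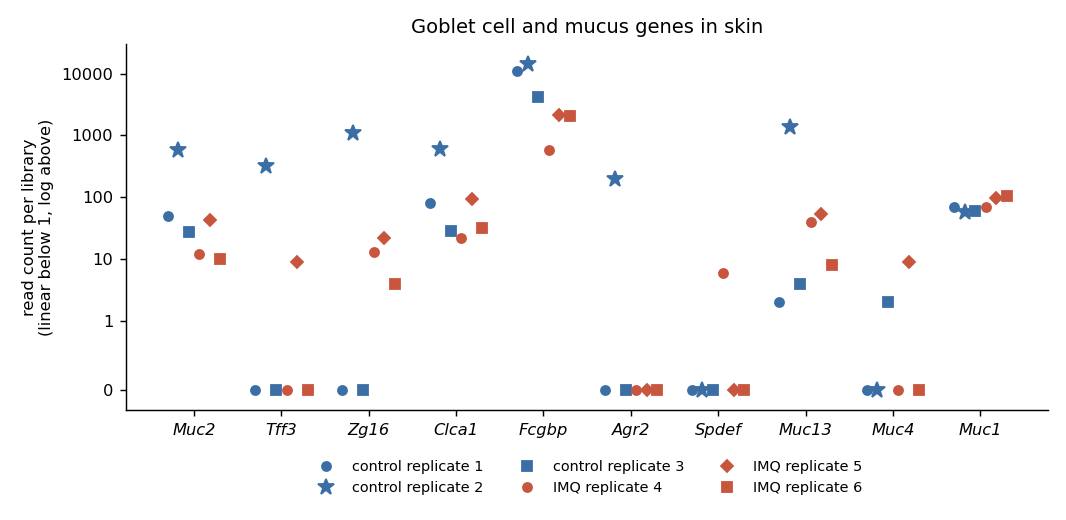
Read count of each gene in each skin library, on an axis that is linear below 1 and logarithmic above. Blue is control and red is IMQ, and the star is control replicate 2. The star stands well above the other libraries for *Muc2*, *Tff3*, *Zg16*, *Clca1*, *Agr2* and *Muc13*. *Fcgbp* is the gene with 586 to 14046 reads in all 6 libraries, and the star is the highest there too, against at most 11133 in the others.

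Of the 10 genes, 5 had a count in every skin library and were tested, and 0 of 5 passed edgeR's quasi-likelihood test, against a background of 6.74% of 20512 genes. Unadjusted p was under 0.05 for 3 of the 5, against 23.2% of all genes. This number was 1 with limma on log2(FPKM + 0.01) and 5 in one fit of all 11 libraries. With DESeq2, 3 of the 5 received an adjusted p and 1 passed.

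*Fcgbp* had 10073, 15317 and 3675 normalized counts in control skin and 640, 2197 and 2201 in IMQ-treated skin. All 3 treated libraries were below every control. The log2 fold change was -2.53 ± 0.64, with an edgeR adjusted p of 0.0655, and with DESeq2 the adjusted p was 2.01e-04. Without control replicate 2 it was -2.03 (edgeR adjusted p = 0.0957), and without control replicate 3 it was -2.92 (adjusted p = 0.0378). Markers of hair follicle and sebaceous gland were also lower, at 246232 to 383391 summed normalized counts in control skin and 78074 to 130719 in IMQ-treated skin. Of 7 tested, 0 were higher and 2 were called lower. Over all 20512 genes tested in skin, 10573 were lower and 552 were called lower. Other lists were lower too, with 7 of 8 smooth muscle and 10 of 12 pan-epithelial markers, whereas 7 of 8 keratinocyte markers were higher. The part of any of these cell types in the *Fcgbp* result was not tested.

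*Muc1* had 70, 57 and 60 counts in control skin and 70, 96 and 103 in IMQ-treated skin. Its normalized counts did not overlap between the groups (log2 fold change 0.68 ± 0.24, edgeR adjusted p = 0.155). Groups did not overlap, in either direction, for these 2 of the 5 tested genes and for 28.4% of all genes.

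The values of the other 3 tested genes rested on control replicate 2. *Muc2* had 49, 571 and 27 counts in control skin and 12, 43 and 10 in IMQ-treated skin, with a log2 fold change of -3.33 ± 1.33 (edgeR adjusted p = 0.196) and -0.57 without that library. *Clca1* had 82, 598 and 29 against 22, 95 and 32 counts, with -2.26 ± 1.18 (adjusted p = 0.311) and 0.07 without it. *Muc13* had 2, 1356 and 4 against 40, 53 and 8 counts, with -3.79 ± 2.09 (adjusted p = 0.335) and 3.68 without it (adjusted p = 0.0647). Without the library, *Muc13* changed direction.

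The untested genes were *Muc4* (0, 0 and 2 counts in control and 0, 9 and 0 in IMQ-treated skin), *Spdef* (0 in controls and 6, 0 and 0 in IMQ-treated skin), *Tff3*, *Agr2* and *Zg16*. Relatives of the mucus genes were abundant in skin instead. *Clca3a2* had 9616 to 46424 counts and *Clca2* 1532 to 5807 per library, and *Muc15* had 1216 to 3041 counts there and 0 in small intestine. *Mucl1* had 497, 683 and 385 counts in control skin and 0, 22 and 28 in IMQ-treated skin, and was not tested because of the 0.

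Skin and small intestine were then compared for their response in one model of all 11 libraries. Of the 10 genes, 5 were tested and 0 of 5 passed, against a background of 2.55% of 18108 genes. *Fcgbp* had the difference nearest to the threshold, 2.50 ± 0.77 on the log2 scale (small intestine minus skin, edgeR adjusted p = 0.125). With DESeq2 its adjusted p was 0.0127, and without skin control replicate 3 the difference was 2.91 (edgeR adjusted p = 0.0397). The difference was 2.69 for *Muc2*, 4.12 for *Muc13* and 1.72 for *Clca1*, and without skin control replicate 2 these were -0.11, -3.39 and -0.65. It was -0.33 for *Muc1*.

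Between the control tissues, all 10 genes passed edgeR's test, against a background of 58.9% of 22369 genes, with 9 higher in small intestine and *Muc1* lower (log2 fold change -1.41, adjusted p = 0.0027). *Tff3*, *Agr2*, *Spdef*, *Zg16* and *Muc4* entered the test only through the small intestine and so had to differ. Of the genes with reads in every library of both tissues, *Fcgbp* was 4.28, *Muc2* 7.87, *Clca1* 8.22 and *Muc13* 8.85 higher on the log2 scale, with skin control replicate 2 included. Without that library the values were 4.80, 10.67, 10.59 and 16.37 in the same order. *Muc4* and *Spdef* were at or under the limit of 3 counts in every control skin library, which makes them at least 456.5-fold and 356.9-fold higher in small intestine as a share of all counts. Intervals and limits of this kind cover counting error only.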

How the data were processed

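RNA of skin and small intestine was sequenced (Illumina TruSeq stranded mRNA), and each library was assigned to tissue and treatment from its labels. The authors aligned reads to mm10 with HISAT2 2.1.0 and quantified them with StringTie 2.1.3b, and the table they deposited holds whole-number read counts for each gene and library, without normalization. The deposited table also holds FPKM, computed by the authors from transcript length and library size, and it was used for levels between genes. The TPM deposited by the authors were read only as a check of that order. The tool that produced the counts and the handling of strand and of multi-mapped reads are not given in the sources used here, so values of paralogs and overlapping genes are uncertain.

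A gene entered a comparison when each of its libraries had 1 or more counts (for the control tissues, when those of either tissue had), and libraries were scaled by relative log expression. IMQ and control libraries were compared in each tissue with the quasi-likelihood test of edgeR 4.0.16 in R 4.3.3, with calls at p under 0.05 after Benjamini-Hochberg adjustment over all genes. The difference between tissues was an interaction over all 11 libraries, and the control tissues were compared in the same model. The standard error is the log2 fold change divided by the square root of F. Normalized counts are expressed per mean effective library of the tissue. The script was tested on simulated data. Positions and promoters came from RefSeq (GRCm38.p6) by Entrez identifier. Libraries held 44995414 to 58526384 counts, so the spread between libraries limits the precision of all but the genes with few reads.

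The 10 genes, the lists and the alternatives were chosen with earlier results of these data known. Named were the 10 genes and, of each list, the called genes in small intestine (at most 4 in each direction) or else up to 2 with the smallest p. For *Muc2* the 5 genes nearest in pattern were named. Relatives of the 10 genes, single list members given with their values and some genes of cell types other than epithelium that are left out here depart from that rule, and were chosen after values were seen. One gene that the rule names is not reported here. Also run were DESeq2 1.42.0, limma-voom (limma 3.58.1), TMM and upper-quartile scaling, filterByExpr, no filter, limma on log2(FPKM + 0.01) and log2(FPKM + 1), one fit of all 11 libraries, scaling to pan-epithelial or enterocyte markers, the position score as covariate, and each library left out in turn.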

Additional observations from a re-analysis of the deposited data

How the results depend on the processing

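No paired analysis was possible because the mouse of each library was not given. The tests across tissues treated all libraries as independent, although skin and small intestine libraries may come from the same mice. *Agr2* kept its direction in small intestine under all alternatives, from -1.26 to -0.60 on the log2 scale, and its adjusted p was highest in the fit of all 11 libraries (-0.94, edgeR adjusted p = 0.901), where the skin libraries with 0 and 196 counts of *Agr2* enter the estimate of its spread. Beside the alternatives named above, it was no longer called with each IMQ library left out. The values of single genes were also pooled over all comparisons. Of these, 488 kept direction and side of the threshold, 7 gained a call, 5 lost it and 21 changed sign. The 5 lost calls were all of *Agr2* in small intestine. The pooled values include the control tissues, where genes that entered only through small intestine had to differ, and many values that were never called. They do not measure how stable the *Agr2* call was. The cause of these changes was not tested.

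In small intestine, called genes numbered 588, against 1206 with DESeq2, 1338 with pan-epithelial scaling, 232 with the position score and 294 (without IMQ replicate 10) to 801 (without control replicate 7) with 1 library left out. Of the 10 genes, 2 were called with DESeq2 and with enterocyte scaling, 0 in the fit of all libraries, with pan-epithelial scaling and with the position score, and 0 to 1 with a library left out. In skin, 1382 genes were called, against 3030 with DESeq2, 894 with log2(FPKM + 1) and 258 (without IMQ replicate 5) to 2521 (without control replicate 2). Of the 5 tested, 1 (*Fcgbp*) was called with DESeq2 and in the fit of all libraries (adjusted p = 0.0177), and 0 to 1 with a library left out. The difference between tissues was called for 462 genes, against 1281 with DESeq2, 301 without a filter and 144 to 1072 with a library left out, and for 1 of the mucus genes with DESeq2 and 0 to 1 with a library left out. Between control tissues, DESeq2 gave an adjusted p for 5 of the 10 genes and called those 5, and 11928 to 13151 genes were called with a library left out.

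Signs changed in small intestine for *Tff3* (0.036), *Fcgbp* (0.26) and *Zg16* (0.086) with pan-epithelial scaling, for *Muc13* (-0.042) and *Muc1* (-0.0090) with enterocyte scaling, and for *Muc13* (-0.79), *Muc1* (-0.43) and *Muc4* (-0.20) with the position score. With 1 library left out, *Fcgbp* ranged from -0.15 to 0.025 there (above 0 without control replicate 7 or 8 or IMQ replicate 10) and *Muc13* from -0.35 (without IMQ replicate 11) to 0.74. In skin, *Muc13* was 0.35 with limma-voom, 0.026 with log2(FPKM + 0.01) and -4.38 to 3.68 with a library left out, and *Clca1* was -3.10 to 0.070, each above 0 without control replicate 2. The difference between tissues was -0.13 for *Muc13* with limma-voom and -0.22 for *Muc2* with log2(FPKM + 1). With a library left out it was -3.39 to 4.72 for *Muc13*, -0.11 to 3.63 for *Muc2* and -0.65 to 2.57 for *Clca1*, each below 0 without skin control replicate 2. With 3 and 2 libraries, the small intestine comparison limits what can be called, and genes at a few reads in skin are limited by depth.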
